A study of Homo sapiens with 12 samples.

Results

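MDA-MB-231 cells exposed to dexamethasone for 4 h were compared with cells given the solvent, across all genes measured and with the emphasis on secreted factors, transcription factors, transporters, signalling proteins and genes that fell. The comparison uses 6 of the 12 samples of a series on 2 breast cancer lines, chosen by the line and treatment named in the sample labels. MDA-MB-231 is an established human line from a triple-negative breast carcinoma. The 3 treated samples received 100 nM dexamethasone and the 3 vehicle samples an equal volume of ethanol, and both arms were harvested after 4 h. The cells grew in DMEM with fetal bovine serum. They came from a single unmodified line, so the replicates carry no independent genetic background. PolyA RNA was read with a transposase-based, non-stranded library method in paired 50-base reads, so reads of overlapping genes on opposite strands cannot be told apart. The labels do not say whether the 3 samples of an arm were separate cultures, so p-values measure only the spread between these samples.

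Dexamethasone is a synthetic agonist of the glucocorticoid receptor, a nuclear receptor encoded by NR3C1. The bound receptor enters the nucleus, where it raises some genes by binding response elements and lowers others, among them targets of the transcription factors AP-1 and NF-kB. Glucocorticoids are known for anti-inflammatory effects, and in epithelia for raising sodium uptake. The series design names regulation by this receptor and by STAT3 as the question behind the treatment.

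Levels are given as CPM, counts scaled to a library of 1000000 after TMM normalisation, and are listed in the order of replicates 1, 2 and 3. Changes are log2 fold changes, dexamethasone minus vehicle, with their standard error. A gene was called when its adjusted p from edgeR's quasi-likelihood test (Benjamini-Hochberg over all 25677 genes tested) was under 0.05. In the sentences below, rose and fell are used of called genes only. For every called gene named with its values, the 3 treated libraries all lay on the same side of the 3 vehicle libraries. For genes named by the largest change, this was a condition of naming and adds no support. Where a pair of levels is given in place of 6, it is the mean of the vehicle and then of the dexamethasone libraries, and a value with ± in brackets is the log2 fold change with its standard error. The libraries held 106345287 to 121859523 counts, and 3 counts in 1 library equal 0.0241 to 0.0272 CPM. The receptor's own mRNA fell from 131 to 93.4 CPM, with 124, 139.9 and 129 in vehicle and 95.4, 90.9 and 93.7 with dexamethasone (log2 fold change -0.49 ± 0.071, adjusted p = 0.00324). FKBP5, a receptor cochaperone used here as a check of the labels, lay at 53.5, 59.9 and 62.9 in vehicle and 1124, 1177 and 1221 with the agonist.

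Markers of mesenchymal-like and of luminal breast cells were both present. The summed level of 12 mesenchymal markers ranged from 7668 to 8239 CPM in vehicle and from 7359 to 7589 with dexamethasone, and that of 12 luminal markers from 1985 to 2359 and from 1876 to 1979. In vehicle, VIM lay at 2315, AXL at 1942 and CD44 at 774 CPM, while SPARC of the same list had 0.524 CPM. Of the luminal list the keratins KRT8, KRT18 and KRT19 lay at 857, 740.2 and 407 CPM and EPCAM at 16, and the hormone receptor genes ESR1 and PGR and the factor FOXA1 were each under 0.1 CPM. The summed level of 12 basal epithelial markers ranged from 118 to 162 CPM in vehicle and from 113 to 140 with dexamethasone. Most of it was SFN, at 108 CPM in vehicle, with TRIM29 at 15.3. In vehicle KRT5, KRT14 and TP63 lay at 0.839, 0.248 and 0.341 CPM. Among leukocyte markers MS4A1 was at 0 in all 6 libraries and PTPRC at 0.194 CPM in vehicle, and the summed level of the 10 markers ranged from 69.8 to 72.4 CPM in vehicle and from 69.6 to 72.3 CPM with dexamethasone, nearly all of it CD68. The libraries differed in how counts depended on the GC content of genes. Each library's deviation from the mean of all 6 libraries was correlated by rank with GC content over 13985 genes. The values were 0.697, 0.175 and -0.249 in vehicle and -0.531, 0.275 and -0.518 with dexamethasone, and they include the difference between the groups. Within their groups vehicle library 1 and dexamethasone library 2 had the highest values. Counts of calls are therefore given also after a correction for GC content and gene length.

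Of 25677 genes tested, 1110 rose (4.32%) and 1006 fell (3.92%). Among the 14276 protein-coding genes the shares were 5.52% and 5.61%. A change of at least 2-fold was reached by 443 of the rises (1.73%) and 293 of the falls (1.14%). When the test asked for a change beyond 1.5-fold, 369 genes were called higher (1.44%) and 169 lower (0.658%). The 3 treated libraries lay above all 3 vehicle libraries for 16.4% of genes and below them for 13.4%, which is the background for groups that do not overlap. After the GC and length correction 1950 genes were called higher and 1842 lower, and 1094 of the 1110 rises and 963 of the 1006 falls were called again in the same direction. Across the 13985 genes the log2 fold changes had a rank correlation of -0.463 with GC content, and its part in the results was not tested. With vehicle library 1 and dexamethasone library 2 both left out, 1732 genes were called higher and 2668 lower. Leaving out vehicle library 2, dexamethasone library 1 or dexamethasone library 3 lowered the number of called genes from 2116 to 1241, 1251 and 1109, and no gene was called in the opposite direction.

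Of genes between 10 and 100 CPM in vehicle, 5.4% rose and 5.44% fell, with median log2 fold changes of 0.52 for the rises and -0.57 for the falls. Of the 804 tested genes under 0.1 CPM in vehicle, 9.83% rose and 0 fell by edgeR's test (1 lower at an unadjusted p under 0.05, and 0 by DESeq2 and by limma voom). The low-count filter fixes this in part, since such a gene passed it mainly through a higher level with dexamethasone.

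**Figure D1:**
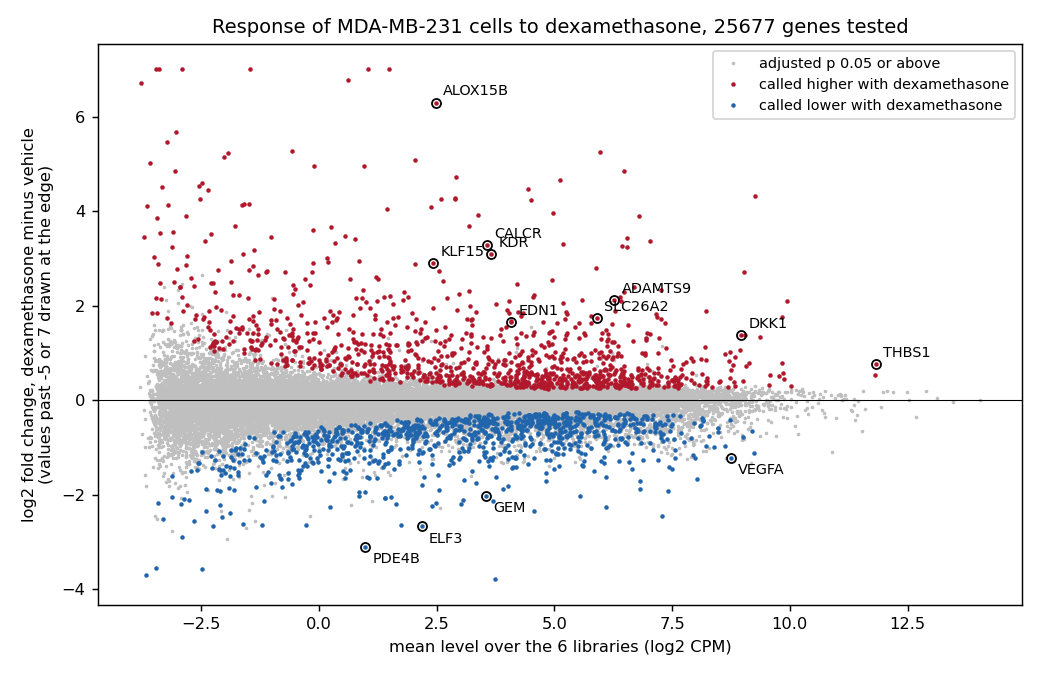
Each point is 1 of 25677 genes, with its mean level over the 6 libraries in log2 CPM on the horizontal axis and its log2 fold change (dexamethasone minus vehicle) on the vertical axis. Red points were called higher, blue points lower and grey points were not called. Open circles mark genes described in the text, such as DKK1 at 1.38 and VEGFA at -1.21.

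Of 276 tested members of the 6 secreted lists, 34 rose (12.3%) and 55 fell (19.9%). The 940 tested transcription factors gave 69 rises (7.34%) and 85 falls (9.04%). For the 507 transport genes there were 43 rises (8.48%) and 40 falls (7.89%). Of 1283 signalling genes 116 rose (9.04%) and 137 fell (10.7%). These shares stand beside 5.52% and 5.61% for protein-coding genes, or 5.84% and 5.78% for those with a mean level of at least 1 on the log2 CPM scale, and no test of the difference was made. The lists were chosen with earlier results of these data known, so shares here and per list below are description only. With 1 library left out, the falls ranged from 39 to 61 for secreted, 48 to 109 for transcription, 16 to 47 for transport and 69 to 152 for signalling genes. The lowest counts came without vehicle library 2, dexamethasone library 1 or dexamethasone library 3. With vehicle library 1 and dexamethasone library 2 both left out, rises and falls numbered 40 and 82 for secreted, 77 and 191 for transcription, 52 and 106 for transport, and 138 and 314 for signalling genes. With the GC and length correction the counts were 48 and 67 for secreted (17.4% and 24.3%), 95 and 133 for transcription (10.1% and 14.1%), 65 and 64 for transport (12.8% and 12.6%), and 192 and 218 for signalling genes (15% and 17%), beside 10.7% and 10.2% of protein-coding genes.

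**Figure D2:**
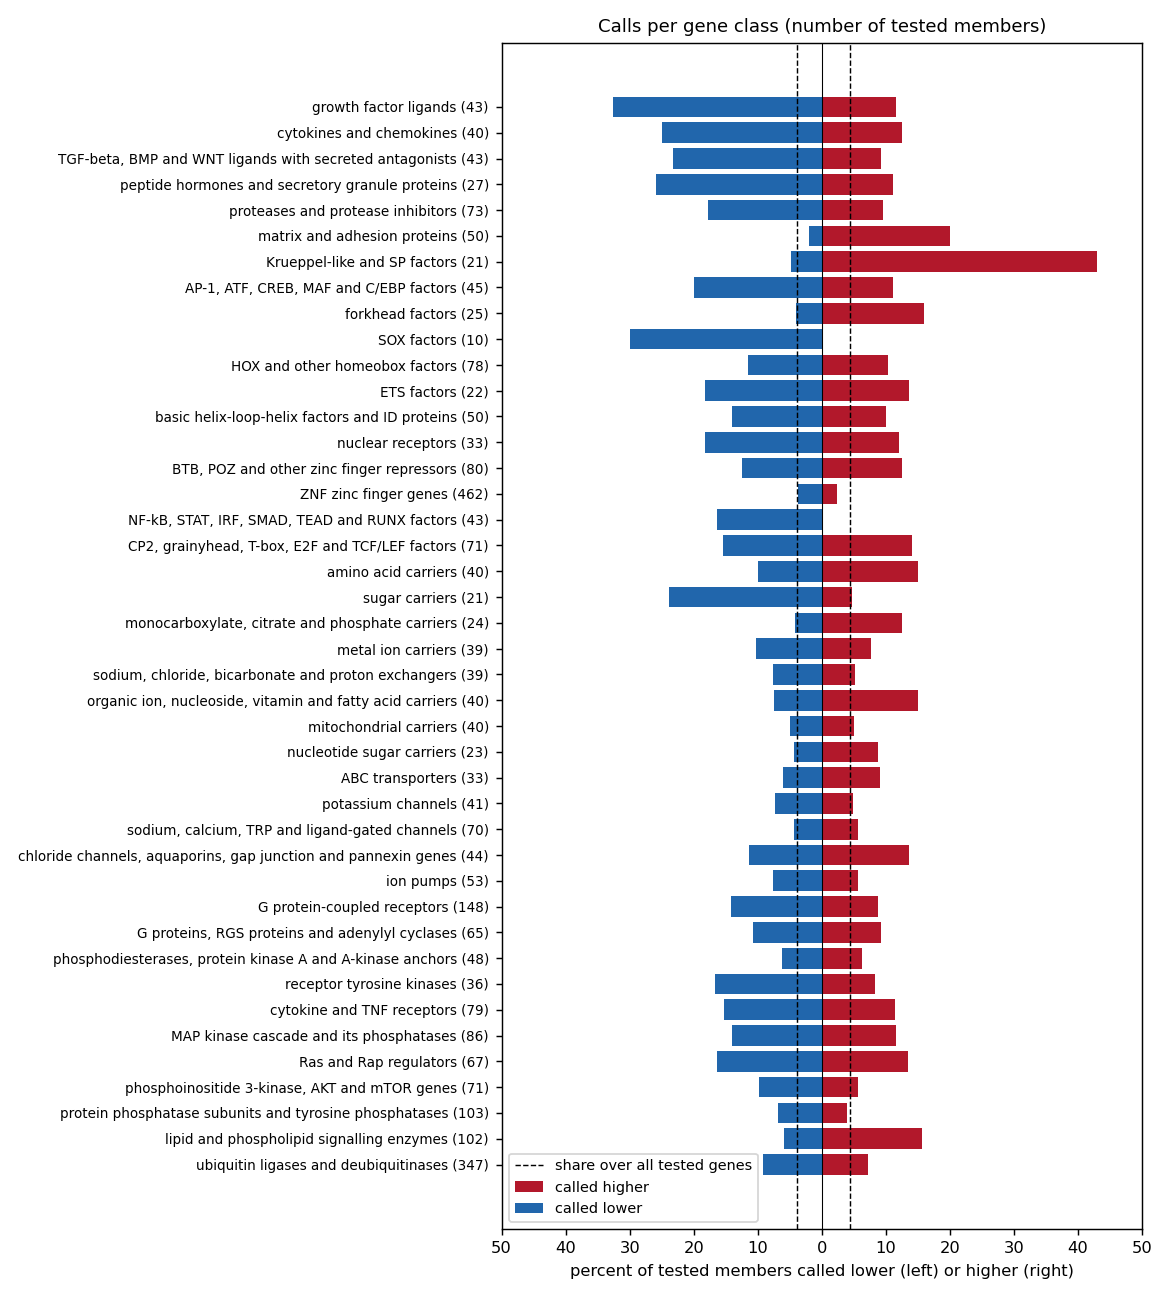
Bars show the percent of tested members of each gene class shown that were called lower (left, blue) or higher (right, red), with the number tested in parentheses. Dashed lines mark the shares over all tested genes, 3.92% lower and 4.32% higher. Growth factor ligands reach 32.6% lower and Krüppel-like and SP factors 42.9% higher.

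Promoter windows of the changed genes were searched for the cores of the response elements of both factor types. RefSeq promoter sequence (GRCh38.p14), from 250 bases before to 50 after an annotated start, was matched to 12577 of the tested genes in 17988 windows. The core of the glucocorticoid response element, searched as GNACA and TGTNC with 3 bases of any kind between them on either strand, occurred in 0.267% of windows of all tested genes. It was found in 0.638% of windows of genes that rose (7 of 1097) and in 0.378% for genes that fell (4 of 1058). The AP-1 core TGANTCA, whose reverse complement is the same pattern, occurred in 5.87% of windows of tested genes. Its share was 8.2% for genes that rose and 8.22% for genes that fell. Among genes lower beyond 1.5-fold it was 11.2% (21 of 187 windows, 95% Wilson interval 7.46% to 16.6%), and among genes higher beyond 1.5-fold 9.65% (7.11% to 13%). By gene, 20 of 121 lower and 35 of 234 higher genes with a window held it. Windows of the same gene can overlap and share a match, as for AMIGO2. The intervals treat such windows as independent and so understate the uncertainty. Matches of the 2 patterns overlapped in 0 of 35116 windows, and a match is a match of letters only. Over all 35116 windows of the table the shares were 0.39% and 7.71%.

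The following stretches show the matched bases in capitals for genes described below, with up to 20 bases on each side, 5′ to 3′ on the gene's strand, all upstream of the start the window was built on. TXNIP and PPARGC1A rose and carry the response element core. The other genes fell and carry the AP-1 core, in F3 as a pair. This choice of genes ties neither core to a direction. The response element core also lay in 4 of 1058 windows of genes that fell. The AP-1 core lay in 8.2% of windows of genes that rose and 8.22% for genes that fell.
TXNIP, chr1:145996722-145996774, minus strand: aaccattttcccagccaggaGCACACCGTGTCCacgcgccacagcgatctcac
PPARGC1A, chr4:24473035-24473087, minus strand: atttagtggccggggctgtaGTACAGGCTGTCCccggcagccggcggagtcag
IL11, chr19:55370533-55370579, minus strand: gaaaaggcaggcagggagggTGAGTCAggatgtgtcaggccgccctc
F3, chr1:94541956-94542002, minus strand: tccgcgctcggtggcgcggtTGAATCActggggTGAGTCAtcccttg
PLAUR, chr19:43670329-43670375, minus strand: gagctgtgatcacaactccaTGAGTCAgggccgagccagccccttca
UCN2, chr3:48563857-48563903, minus strand: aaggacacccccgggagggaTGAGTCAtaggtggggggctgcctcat
CREB5, chr7:28686069-28686115, plus strand: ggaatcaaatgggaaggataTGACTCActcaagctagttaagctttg
KSR1, chr17:27471840-27471886, plus strand: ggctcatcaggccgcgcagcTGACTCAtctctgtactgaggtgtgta
PPFIBP2, chr11:7605618-7605664, plus strand: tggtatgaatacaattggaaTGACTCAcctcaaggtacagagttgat
The matches lie 175 bases before the start for TXNIP, 162 for PPARGC1A, 96 for IL11 and for PPFIBP2, 223 for the first of the F3 pair, 186 for PLAUR, 102 for UCN2, 44 for CREB5 and 104 for KSR1.

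Growth factor ligands fell more often than they rose. Of 43 tested members 14 fell (32.6%) and 5 rose (11.6%), and the median log2 fold change was -0.40, beside -0.01 over all tested genes. After the GC and length correction 16 members were called lower and 5 higher. The median was then smaller, at -0.21, beside -0.001 over all tested genes. VEGFA, the main driver of blood vessel growth, had 623, 580.0 and 593 CPM in vehicle and 245, 283 and 247 with dexamethasone. The log2 fold change was -1.21 ± 0.081 (adjusted p = 4.11e-05). VEGFC, a ligand for lymphatic vessel growth, fell to a like degree, from 51.8, 47.2 and 48.6 to 23.8, 25.3 and 23.6 CPM (log2 fold change -1.02 ± 0.069, adjusted p = 4.32e-05). FGF5, a fibroblast growth factor, fell from 14.4, 16.7 and 16.8 to 7.23, 6.94 and 6.67 CPM (log2 fold change -1.2 ± 0.089, adjusted p = 7.01e-05). Groups without overlap were a condition of naming VEGFA and FGF5, and VEGFC was chosen after its values were seen.

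Ligands of the ERBB receptors did not move together. TGFA fell from 84.9, 90.5 and 83.1 to 47.5, 45.7 and 46 CPM (log2 fold change -0.89 ± 0.066, adjusted p = 6.83e-05), and NRG1 fell from 80 to 51 CPM (-0.65 ± 0.078). AREG, a ligand of the same EGF receptor as TGFA, rose from 31.1, 30.9 and 32.6 to 65, 57.9 and 59.4 CPM (log2 fold change 0.95 ± 0.071, adjusted p = 7.43e-05). KITLG, the ligand of the KIT receptor, fell from 31.5 to 19.1 CPM (-0.72 ± 0.077). The colony-stimulating factors also split. CSF1, which sustains macrophages, fell from 477, 388 and 319.9 to 169, 239 and 197 CPM (log2 fold change -0.97 ± 0.18, adjusted p = 0.0213). This call was lost without vehicle library 2, dexamethasone library 1 or dexamethasone library 3. CSF3, which drives neutrophil production, rose from 0.286, 0.162 and 0.263 to 2.31, 2.98 and 2.61 CPM (log2 fold change 3.48 ± 0.21, adjusted p = 2.53e-05), while CSF2 fell from 0.598 to 0.166 CPM. The placental growth factor gene PGF rose from 7.32 to 12.6 CPM (log2 fold change 0.79 ± 0.16, adjusted p = 0.0228), a call lost without vehicle library 2.

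Cytokine genes fell in 10 and rose in 5 of 40 tested cases (25% and 12.5%). IL11, an interleukin-6 family cytokine whose promoter stretch is shown above, had 31.2, 23 and 20.2 CPM in vehicle and 1.9, 1.96 and 1.52 with dexamethasone. Its relatives LIF (41.5, 34.5 and 35.8 to 17, 21.2 and 16.7 CPM, log2 fold change -1.02 ± 0.11, adjusted p = 7.55e-04) and CLCF1 (22.3 to 12.2 CPM, -0.87 ± 0.099) fell too. IL6 itself was low and fell from 2.36, 2.28 and 2.22 to 1.14, 1.38 and 1.1 CPM (log2 fold change -0.93 ± 0.13, adjusted p = 0.00262), with 20.7% of its exonic bases shared with another gene. TNFSF15, a ligand of the TNF family, fell from 0.945 to 0.299 CPM (-1.66 ± 0.26). The 5 rises were all of genes under 1 CPM in vehicle: CXCL1, CXCL2, CXCL3, CCL20 and IL1A, which attract or activate leukocytes. CXCL2 was the most abundant of them, at 0.706, 0.681 and 0.472 CPM in vehicle and 3.09, 3.02 and 3.31 with dexamethasone (log2 fold change 2.34 ± 0.16, adjusted p = 4.92e-05). CCL20 had 0.00893, 0.0324 and 0 and 0.322, 0.238 and 0.13 CPM (log2 fold change 3.9 ± 0.71, adjusted p = 0.00979). The calls of CXCL2 and CCL20 held under the 17 alternatives that gave them a value, all but the strict low-count filter, whereas those of CXCL1, CXCL3 and IL1A were each lost without vehicle library 2. CXCL3 was also lost without vehicle library 1 or dexamethasone library 1 or 2, and IL1A without any single library.

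Ligands and secreted antagonists of the TGF-beta, BMP and WNT pathways gave 4 rises and 10 falls among 43 tested members (9.3% and 23.3%). DKK1, a secreted inhibitor of WNT receptors, was abundant and rose from 296, 265 and 269.6 to 756, 675 and 732 CPM (log2 fold change 1.38 ± 0.079, adjusted p = 1.76e-05). The WNT ligands WNT9A (31.2, 24.1 and 20.2 to 5.93, 8.97 and 6.61 CPM, log2 fold change -1.81 ± 0.22, adjusted p = 0.00376) and WNT7B (86.7, 65.9 and 56.9 to 23.9, 31.4 and 25.7 CPM, log2 fold change -1.37 ± 0.18, adjusted p = 0.00467) fell. Vehicle library 1 was the highest of its group for both. NOG and FST, secreted antagonists of BMPs and activins, fell: NOG from 30.3, 25 and 20.6 to 10, 12.3 and 10.1 CPM (log2 fold change -1.23 ± 0.15, adjusted p = 0.00258) and FST from 34.8, 33.1 and 34.2 to 18.6, 16.9 and 18 CPM (log2 fold change -0.93 ± 0.069, adjusted p = 7.17e-05). FSTL3, a follistatin relative with the same kind of activity, rose from 51.3, 40 and 35.2 to 74.3, 97.8 and 83.5 CPM (log2 fold change 1.01 ± 0.16, adjusted p = 0.00965). GDF15, a stress-induced cytokine of the family, fell from 1.77 to 0.539 CPM (-1.72 ± 0.2).

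Peptide hormone genes gave 3 rises and 7 falls among 27 tested (11.1% and 25.9%). EDN1, which encodes the vasoconstrictor endothelin-1, rose from 7.92, 7.84 and 8.82 to 26.5, 24.2 and 26.3 CPM (log2 fold change 1.65 ± 0.082, adjusted p = 7.25e-06). Stanniocalcin STC1 fell from 39.7, 41.7 and 41.7 to 21.8, 21.9 and 23.3 CPM (log2 fold change -0.88 ± 0.066, adjusted p = 7.53e-05). The vasodilator peptide gene APLN fell from 6.88 to 3.38 CPM (-1.03 ± 0.16) and the angiopoietin-like ANGPTL2 from 23.4 to 13.7 CPM (-0.77 ± 0.08). UCN2, a peptide of the corticotropin-releasing hormone family, fell from 7.46, 6.26 and 6.45 to 3.17, 3.68 and 3.06 CPM (log2 fold change -1.02 ± 0.11, adjusted p = 8.06e-04), and 19.5% of its exonic bases overlap another gene.

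Of 73 tested proteases and protease inhibitors 7 rose and 13 fell (9.59% and 17.8%), and after the GC and length correction these counts were 18 and 17. The urokinase gene PLAU, which encodes a plasminogen activator, fell from 270.3, 249.6 and 245 to 162, 153 and 155 CPM (log2 fold change -0.70 ± 0.07, adjusted p = 4.11e-04), with 31.1% of its exonic bases overlapping another gene. Its receptor gene PLAUR fell from 41.9, 40.7 and 43.6 to 20.8, 19.8 and 19.3 CPM. F3, tissue factor, the starter of the clotting cascade, fell from 433, 434 and 472 to 233, 217 and 224 CPM (log2 fold change -0.99 ± 0.071, adjusted p = 5.83e-05). ADAMTS9, a protease that cleaves proteoglycans, rose from 26.5, 30.8 and 29.5 to 119, 126 and 132 CPM (log2 fold change 2.12 ± 0.083, adjusted p = 2.08e-06). TIMP3, a matrix-bound protease inhibitor, fell from 412, 411 and 352 to 221, 233 and 238 CPM (log2 fold change -0.76 ± 0.083, adjusted p = 6.93e-04).

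The list of matrix and adhesion proteins gave 10 rises and 1 fall among 50 tested (20% and 2%), although the list's median was -0.09. THBS1, thrombospondin-1, was highly abundant and rose from 3062, 2688 and 2335 to 4362, 4651 and 4678 CPM (log2 fold change 0.76 ± 0.1, adjusted p = 0.00217). The collagen cross-linking enzyme LOX rose from 78.1, 84.1 and 80.6 to 161, 159 and 167 CPM (log2 fold change 1.0 ± 0.066, adjusted p = 3.78e-05). FBLN1, a matrix glycoprotein, rose from 3.63, 2.85 and 2.37 to 7.75, 8.46 and 8.5 CPM (log2 fold change 1.48 ± 0.15, adjusted p = 4.39e-04), fibrillin FBN1 from 33.2 to 49.3 CPM and the adhesion molecule ALCAM from 336 to 522 CPM. Fibronectin FN1 rose from 528, 699 and 650.2 to 794, 958 and 972 CPM, a call lost without vehicle library 3, dexamethasone library 2 or dexamethasone library 3 (log2 fold change 0.54 ± 0.12, adjusted p = 0.0315). The single fall in the list was ICAM1, an adhesion molecule for leukocytes, from 26.6, 25.3 and 24 to 14.4, 16.5 and 14 CPM (log2 fold change -0.76 ± 0.087, adjusted p = 9.03e-04), with 22% overlap. The collagen genes COL1A1 and COL1A2 stood among the fibroblast markers and not in this list. COL1A2 fell from 46.1, 41.7 and 32.3 to 22.3, 26.5 and 25.6 CPM (log2 fold change -0.69 ± 0.14, adjusted p = 0.02), a call lost without vehicle library 2 or dexamethasone library 1 or 3, and COL1A1 had means of 23.3 CPM in vehicle and 12 with dexamethasone (adjusted p = 0.128 by edgeR's test). The summed level of the 9 fibroblast markers ranged from 55.9 to 90.2 CPM in vehicle and from 37.2 to 48.7 CPM with dexamethasone. Most of it came from COL1A1 and COL1A2 of this single line. The group means of DCN, FAP and COL3A1 were each under 0.2 CPM. The part of this sum in the matrix results was not tested.

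**Figure D3:**
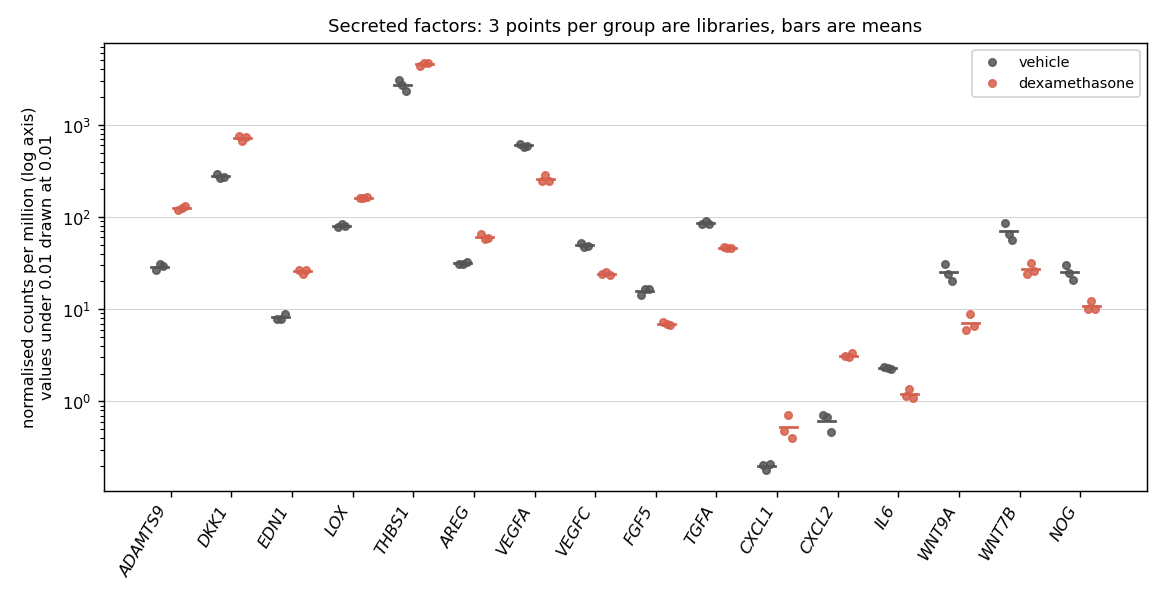
Each point is 1 library and each bar the mean of 3, in normalised CPM on a log axis, with vehicle in grey and dexamethasone in red. ADAMTS9, DKK1, EDN1, LOX, THBS1 and AREG lie higher with dexamethasone, and VEGFA, VEGFC, FGF5, TGFA, WNT9A, WNT7B and NOG lower, without overlap of the groups. CXCL1, CXCL2 and IL6 sit below 4 CPM.

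Among the transcription factor lists, the Krüppel-like and SP family had the highest share of rises, 9 of 21 tested members (42.9%), with 1 fall (4.76%) and a median log2 fold change of 0.26. The rises include a canonical receptor target that is not described here. These zinc finger proteins bind GC-rich promoter elements. KLF15, a regulator of amino acid and glucose metabolism, rose from 1.59, 1.11 and 1.09 to 8.3, 10.9 and 9.07 CPM (log2 fold change 2.9 ± 0.18, adjusted p = 2.99e-05). KLF7 rose from 4.84, 5.47 and 5.75 to 22.4, 21.4 and 21.9 CPM (log2 fold change 2.03 ± 0.087, adjusted p = 3.14e-06) and KLF13 from 23.8, 22.7 and 20.2 to 61.3, 74.3 and 71.7 CPM (log2 fold change 1.63 ± 0.098, adjusted p = 2.28e-05). The abundant KLF6 rose from 215, 210.1 and 215 to 393, 376 and 385 CPM (log2 fold change 0.85 ± 0.063, adjusted p = 7.02e-05). KLF5 rose from 25.4 to 40.7 CPM and SP6 from 5.27 to 13.5 CPM. The rises of KLF3 and KLF4 were smaller (0.26 ± 0.067 and 0.58 ± 0.12). That of KLF4 was lost without vehicle library 2 or dexamethasone library 1 or 2. The call of KLF3 was lost without any single library and with each of the 3 other scalings. KLF2 was the one fall, from 20, 14.7 and 10.1 to 5.09, 7.57 and 5.58 CPM (log2 fold change -1.3 ± 0.28, adjusted p = 0.0481), and this was lost without vehicle library 1 or 2 or dexamethasone library 1 or 3.

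Basic leucine zipper factors moved in both directions. Of 45 tested, 5 rose and 9 fell (11.1% and 20%). BATF, a partner of JUN proteins known from lymphocytes, rose from 1.2, 0.998 and 0.825 to 4.23, 5.35 and 4.34 CPM (log2 fold change 2.2 ± 0.16, adjusted p = 7.02e-05). CEBPD, a C/EBP factor of the acute-phase response, rose from 5.66, 4.53 and 3.86 to 12.8, 15.1 and 14.6 CPM (log2 fold change 1.6 ± 0.14, adjusted p = 2.29e-04). NFIL3, a repressor tied to the circadian clock, rose from 13.9, 14.4 and 16.4 to 32.9, 28.3 and 32.7 CPM, while DBP, an activator that binds the same elements, fell from 3.87, 3.51 and 2.91 to 1.14, 1.65 and 1.44 CPM (log2 fold change -1.28 ± 0.17, adjusted p = 0.0018). HLF, a close relative of DBP, was low and fell from 0.417 to 0.167 CPM (-1.31 ± 0.23). CREB5, shown above with its AP-1 core, fell from 3.1, 3.56 and 4.07 to 0.916, 1.15 and 1.34 CPM (log2 fold change -1.65 ± 0.17, adjusted p = 4.52e-04). FOSL2, an AP-1 subunit, fell from 406, 332 and 281 to 135, 173 and 150.1 CPM (log2 fold change -1.15 ± 0.15, adjusted p = 0.00341).

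No member of the list of NF-kB, STAT, IRF, SMAD, TEAD and RUNX factors rose, and 7 of 43 fell (16.3%) by edgeR's test. At an unadjusted p under 0.05 there was 1 rise, and DESeq2 and limma voom gave 0. After the GC and length correction 1 rose and 9 fell. SMAD3, which carries TGF-beta signals to the nucleus, fell from 219.8, 188 and 174 to 106, 119 and 110.0 CPM (log2 fold change -0.79 ± 0.099, adjusted p = 0.00147). IRF1, an interferon response factor, fell from 224, 202 and 217 to 133, 145 and 131 CPM (log2 fold change -0.65 ± 0.075, adjusted p = 9.01e-04; 22% overlap). NFATC2, a calcium-dependent factor, fell from 30.6, 27.9 and 26.3 to 16.5, 16.3 and 16.6 CPM (log2 fold change -0.78 ± 0.077, adjusted p = 3.77e-04). The NF-kB subunit gene RELB fell from 34.3, 23.7 and 20.1 to 11.8, 14.7 and 10.3 CPM (log2 fold change -1.08 ± 0.23, adjusted p = 0.0416), with the call lost without vehicle library 2 or dexamethasone library 1 or 3.

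Homeobox genes rose in 8 and fell in 9 of 78 tested cases (10.3% and 11.5%). LHX6, a LIM homeobox factor known from interneurons, rose from 5.93, 6.31 and 4.86 to 28.8, 34 and 30.7 CPM (log2 fold change 2.45 ± 0.12, adjusted p = 5.42e-06). ZFHX3 rose from 43.2 to 80 CPM and POU2F1 from 35.6 to 50.5 CPM. The chromatin organiser SATB1 fell from 5.14 to 3.1 CPM. IRX3 rose from 29.9, 19.6 and 16.9 to 54.6, 80.3 and 59.2 CPM (log2 fold change 1.55 ± 0.26, adjusted p = 0.0204), a call lost without vehicle library 2 or dexamethasone library 3. Of the 10 tested SOX genes 3 fell and 0 rose by edgeR's test, with 0 rises at an unadjusted p under 0.05, by DESeq2 or by limma voom. Beyond SOX9, SOX4, a factor of progenitor cells, fell from 11, 11.4 and 10.5 to 5.26, 5.68 and 5.48 CPM (log2 fold change -1.0 ± 0.081, adjusted p = 1.06e-04). The fall of SOX15 (-0.99 ± 0.21) was lost without dexamethasone library 1 or 3.

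Further factors with large changes came from several families. ELF3, an epithelial ETS factor, fell from 9.77, 7.98 and 5.78 to 1.2, 1.26 and 1.23 CPM (log2 fold change -2.67 ± 0.19, adjusted p = 9.50e-05). Other ETS genes moved less: ETS2 rose from 50.8 to 71.9 CPM, ELK3 rose from 107 to 149.5 CPM and ETV6 fell from 19.4 to 12.8 CPM. HES1, a Notch target and repressor, fell from 7.82, 6.65 and 8.31 to 3.32, 2.7 and 2.91 CPM (log2 fold change -1.35 ± 0.12, adjusted p = 2.26e-04). The clock-linked repressors BHLHE40 (62.1, 59.8 and 58.6 to 30.5, 31.4 and 30.5 CPM, log2 fold change -0.97 ± 0.063, adjusted p = 3.52e-05) and BHLHE41 (5.86 to 2.67 CPM, -1.14 ± 0.12) fell as well. MYC, a driver of growth and ribosome production, rose from 87.3, 75.1 and 71.8 to 153, 163 and 149.5 CPM (log2 fold change 0.99 ± 0.089, adjusted p = 2.09e-04). The growth-linked inhibitor of differentiation ID1 rose from 56.7, 49.3 and 53.2 to 101, 97.5 and 92.9 CPM (log2 fold change 0.87 ± 0.076, adjusted p = 1.75e-04). E2F7, a repressor of the cell cycle programme, fell from 87.6, 99 and 98.4 to 39.6, 36.4 and 37.3 CPM (log2 fold change -1.33 ± 0.076, adjusted p = 1.80e-05), and E2F2, an activator, from 14 to 7.1 CPM (-0.98 ± 0.11).

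Nuclear receptors gave 4 rises and 6 falls among 33 tested (12.1% and 18.2%). PPARG, the receptor that governs fat storage genes, rose from 26.6, 27.9 and 27.1 to 53.7, 45.7 and 50.5 CPM (log2 fold change 0.88 ± 0.077, adjusted p = 1.86e-04). The thyroid hormone receptor gene THRA rose from 36.9, 32.1 and 26.6 to 54.5, 72.3 and 63.3 CPM (log2 fold change 0.99 ± 0.15, adjusted p = 0.00566), and NR5A2 rose at low level from 0.205 to 1.12 CPM (2.44 ± 0.19). NR2F2, an orphan receptor of mesenchymal cells, fell from 223, 205 and 198 to 86.2, 89.7 and 85.7 CPM (log2 fold change -1.26 ± 0.073, adjusted p = 1.85e-05). PPARGC1A, a coactivator of mitochondrial genes with the response element core shown above, rose from 2.29, 2.55 and 2.62 to 5.11, 4.87 and 5.66 CPM (log2 fold change 1.07 ± 0.11, adjusted p = 4.24e-04). The nuclear receptor cofactors NCOA3, a coactivator, and NRIP1, a corepressor, rose from 55.1 to 105 CPM and from 16.4 to 28.9 CPM. TXNIP, an arrestin-like protein that restrains glucose uptake and carries the same core, rose from 288, 334 and 325 to 594, 584 and 599.9 CPM (log2 fold change 0.91 ± 0.077, adjusted p = 1.44e-04).

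Zinc finger repressors outside these families rose and fell in equal number, 10 each of 80 tested (12.5% each). BCL6, a repressor of inflammatory genes, rose from 18.1, 17.4 and 16.6 to 39, 43.1 and 40.1 CPM (log2 fold change 1.23 ± 0.073, adjusted p = 2.12e-05). ZFP36, which marks AU-rich mRNAs for decay and is an RNA-binding rather than a DNA-binding protein, rose from 9.11, 8.94 and 8.41 to 27.4, 34.4 and 29.6 CPM (log2 fold change 1.79 ± 0.098, adjusted p = 1.32e-05). IKZF2 rose from 3.92 to 8.7 CPM. WT1 fell from 3.55, 3.84 and 3.94 to 1.78, 1.14 and 1.53 CPM (log2 fold change -1.35 ± 0.16, adjusted p = 0.00115) and PRDM8 from 20.6 to 9.79 CPM. By contrast, the 462 tested ZNF genes had 11 rises (2.38%) and 17 falls (3.68%), both below the shares of protein-coding genes. The falls of FOXO6 (-2.18 ± 0.43) and HIC1 (-1.9 ± 0.37), both among the 20 largest falls of genes with a mean level of at least 1 on the log2 CPM scale, were lost without vehicle library 2 or dexamethasone library 1 or 3. For HIC1, 29.8% of exonic bases overlap another gene. Vehicle library 1 was highest for both: FOXO6 had 13.8, 8.13 and 5.56 CPM in vehicle and 1.45, 2.89 and 1.73 with dexamethasone.

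**Figure D4:**
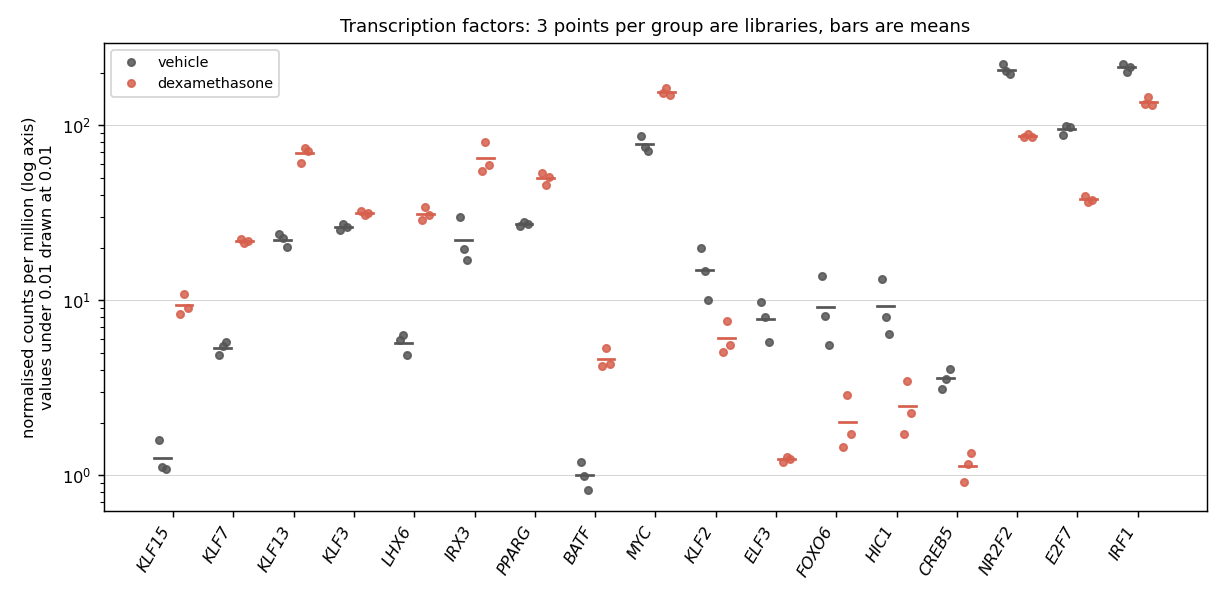
Normalised CPM on a log axis for 17 transcription factors, with 1 point per library and a bar at the mean of 3, vehicle in grey and dexamethasone in red. KLF15, KLF7, KLF13, LHX6, BATF, MYC and PPARG sit higher with dexamethasone and ELF3, CREB5, NR2F2, E2F7 and IRF1 lower. The vehicle points of KLF2, FOXO6 and HIC1 spread more widely than those of NR2F2 or E2F7.

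Among transport genes, the alpha, beta and gamma subunits of the epithelial sodium channel rose. This channel admits sodium across the apical face of epithelia. SCNN1G, the gamma subunit, had 0 counts in all 3 vehicle libraries and 5.47, 5.52 and 5.75 CPM with dexamethasone, 2038 counts in all. Against 3 counts over the vehicle group this is at least 642-fold higher (adjusted p = 2.40e-06). SCNN1A, the alpha subunit, rose from 28.4, 26.4 and 24.1 to 58.1, 75.2 and 62.6 CPM (log2 fold change 1.31 ± 0.11, adjusted p = 1.35e-04). SCNN1B, the beta subunit, rose from 0.0893, 0.0162 and 0 to 0.707, 0.603 and 0.601 CPM (log2 fold change 4.15 ± 0.63, adjusted p = 0.00702). Groups did not overlap for any of the 3 genes. This was a condition of naming SCNN1G and SCNN1A, and SCNN1B was chosen after its values were seen, so it adds no support. SCNN1B had 12 counts over the vehicle libraries and 233 with dexamethasone. It and SCNN1G passed the low-count filter only through the dexamethasone group. The delta subunit gene SCNN1D had 78.2, 46 and 36.7 CPM in vehicle and 21.4, 45.9 and 24.3 with dexamethasone, with overlapping groups and an adjusted p of 0.277 by edgeR's test. Over the whole list of sodium, calcium, TRP and ligand-gated channels, 4 of 70 tested members rose and 3 fell (5.71% and 4.29%). These shares are near those of protein-coding genes, 5.52% and 5.61%. TRPV6, a calcium channel, was the largest fall, from 1.38 to 0.56 CPM (-1.3 ± 0.18).

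Amino acid carriers rose in 6 and fell in 4 of 40 tested cases (15% and 10.0%). SLC38A2, a sodium-coupled carrier of small neutral amino acids, was abundant and rose from 259, 297 and 282 to 565, 541 and 590.3 CPM (log2 fold change 1.02 ± 0.078, adjusted p = 8.27e-05). Its relatives SLC38A1 (71.5 to 105 CPM, 0.55 ± 0.084) and SLC38A4 (13.1 to 26.9 CPM, 1.04 ± 0.11) rose too. The cationic amino acid carrier SLC7A2 rose from 22.5, 25.9 and 25.8 to 85.4, 83.2 and 86.6 CPM (log2 fold change 1.78 ± 0.078, adjusted p = 3.29e-06). SLC7A7, a light chain that exchanges cationic for neutral amino acids, rose from 2.02, 2.3 and 2.23 to 8.25, 9.19 and 7.9 CPM (log2 fold change 1.95 ± 0.1, adjusted p = 1.17e-05). Of the 4 falls, that of SLC6A12, a carrier of betaine and GABA, was the largest, from 0.991, 0.925 and 0.635 to 0.145, 0.357 and 0.3 CPM (log2 fold change -1.67 ± 0.32, adjusted p = 0.0152), and its call was lost without vehicle library 2 or dexamethasone library 3. Those of SLC1A4, SLC43A2 and SLC36A1 were under 0.5 on the log2 scale in size and were lost without vehicle library 2 or dexamethasone library 1.

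Carriers of inorganic ions, sugars and vitamins included further rises. SLC20A1, a sodium-coupled phosphate carrier, rose from 338, 387 and 393 to 948, 907 and 980.0 CPM (log2 fold change 1.34 ± 0.082, adjusted p = 2.40e-05). SLC26A2, a sulfate carrier needed for sulfated proteoglycans, rose from 25.6, 28.6 and 28.9 to 87.4, 93.1 and 97.2 CPM (log2 fold change 1.74 ± 0.079, adjusted p = 4.60e-06). SLC17A5, which exports sialic acid from lysosomes, rose from 38.5, 42.8 and 40.6 to 98.4, 95.1 and 108 CPM (log2 fold change 1.31 ± 0.077, adjusted p = 2.16e-05). SLC16A12, a monocarboxylate carrier family member, rose from 1, 0.892 and 0.898 to 3.87, 4.43 and 4.4 CPM (log2 fold change 2.19 ± 0.12, adjusted p = 1.19e-05). SLC35D1, a nucleotide sugar carrier of the endoplasmic reticulum, rose from 18.6, 22.8 and 22.3 to 44.5, 40.2 and 44.7 CPM (log2 fold change 1.02 ± 0.093, adjusted p = 2.39e-04). The thiamine carrier SLC19A2 (16.8, 18.1 and 16.5 to 37.7, 37.1 and 37.5 CPM, log2 fold change 1.13 ± 0.068, adjusted p = 2.33e-05) and the carnitine carrier SLC22A5 (29.8 to 54.9 CPM, 0.88 ± 0.072) also rose.

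Sugar carriers had 5 falls and 1 rise among 21 tested (23.8% and 4.76%). Of these, SLC5A3, a sodium-coupled inositol carrier, fell from 73.1, 79.2 and 74.9 to 42.6, 46.1 and 47 CPM (log2 fold change -0.74 ± 0.071, adjusted p = 2.98e-04) and SLC2A12, a glucose transporter family member, from 5.17 to 2.67 CPM (38.9% overlap), while the calls of SLC45A3, SLC45A4 and SLC2A8 were lost without vehicle library 2. The iron exporter ferroportin, SLC40A1, fell from 2.96, 4.28 and 3.45 to 1.51, 1.48 and 1.64 CPM (log2 fold change -1.21 ± 0.15, adjusted p = 0.00146). ABCG1, a cholesterol exporter, fell from 1.48, 2.18 and 1.86 to 0.563, 0.594 and 0.739 CPM (log2 fold change -1.54 ± 0.19, adjusted p = 0.00124). Among 40 mitochondrial carriers, 2 rose and 2 fell (5% each), which is near the share of protein-coding genes. The rise of BEST1 and of the ferritin heavy chain FTH1 cannot be divided between them, since 62.4% of FTH1's exonic bases overlap BEST1. Anion channel subunit LRRC8A rose from 179.7, 158 and 139.7 to 235, 272 and 248 CPM (log2 fold change 0.66 ± 0.1, adjusted p = 0.00507) and the hemichannel PANX1 from 38.8 to 59 CPM. The gap junction gene GJB2 fell from 8.01 to 5.19 CPM.

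Receptors coupled to G proteins rose in 13 and fell in 21 of 148 tested cases (8.78% and 14.2%); the list also holds NPR3, which is no member of that receptor class. CALCR, the calcitonin receptor, rose from 2.05, 2.12 and 2.4 to 21.4, 20.5 and 22.4 CPM (log2 fold change 3.29 ± 0.094, adjusted p = 3.62e-07). The sphingosine 1-phosphate receptors S1PR1 (1.78, 1.59 and 1.77 to 6.33, 5.76 and 6.36 CPM, log2 fold change 1.84 ± 0.1, adjusted p = 1.51e-05) and S1PR3 (5, 4.26 and 4 to 14.4, 14.1 and 15.1 CPM, log2 fold change 1.72 ± 0.1, adjusted p = 2.16e-05) rose. The adrenergic receptor ADRA1B rose from 8.45, 7.29 and 5.67 to 23.3, 28.3 and 25.1 CPM (log2 fold change 1.84 ± 0.15, adjusted p = 2.39e-04). CCRL2, a chemokine-binding receptor, fell from 26, 27.2 and 26 to 10.7, 8.54 and 10.3 CPM (log2 fold change -1.42 ± 0.095, adjusted p = 4.28e-05). The fall of the adenosine receptor ADORA2A from 23.7 to 6.41 CPM concerns a gene with 56.8% exonic overlap. At low level the bradykinin receptor BDKRB1 fell from 0.307 to 0.0248 CPM and the chemokine receptor CCR1 from 0.139 to 0.011 CPM.

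Of 48 tested genes of cyclic AMP signalling, 3 rose and 3 fell (6.25% each), which is near the shares of protein-coding genes, 5.52% and 5.61%. AKAP12, a scaffold that binds protein kinase A, rose from 16.9, 18.1 and 19.1 to 79.3, 76 and 78.6 CPM (log2 fold change 2.11 ± 0.072, adjusted p = 8.72e-07). AKAP13, another scaffold of that kind, rose from 36.1, 38.2 and 39.4 to 73.7, 79 and 83.6 CPM (log2 fold change 1.06 ± 0.074, adjusted p = 5.27e-05). The cyclic AMP phosphodiesterase PDE7B fell from 13.9, 16.7 and 15.9 to 4.86, 4.04 and 5 CPM (log2 fold change -1.74 ± 0.11, adjusted p = 3.47e-05). PDE4B, another enzyme of that class, fell from 3.72, 3.41 and 3.42 to 0.257, 0.484 and 0.479 CPM. RGS2, which shortens G protein signals, rose from 0.866, 0.56 and 0.626 to 2.6, 3.27 and 3.3 CPM (log2 fold change 2.16 ± 0.19, adjusted p = 1.66e-04), while RGS4 fell from 30.8 to 19.1 CPM and RGS14 from 6.16 to 2.48 CPM.

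Receptor tyrosine kinases had 3 rises and 6 falls among 36 tested (8.33% and 16.7%). KDR, the main receptor of VEGFA, rose from 2.46, 2.68 and 2.82 to 21.5, 21.5 and 24.6 CPM (log2 fold change 3.09 ± 0.098, adjusted p = 6.03e-07), opposite to the fall of its ligand. KDR is also an endothelial marker. The summed level of the 7 endothelial markers ranged from 91.7 to 107 CPM in vehicle and from 104 to 116 CPM with dexamethasone. Most of it was ESAM. In group means CDH5 went from 0.0279 to 0.0219 CPM, near the counting floor, and was not tested. VWF went from 0.293 to 0.153 CPM and TIE1 from 0.359 to 0.816 CPM (adjusted p = 0.415 and 0.104 by edgeR's test). Of the 6 tested markers 1 was called higher, and 2 after the GC and length correction. Within bulk RNA of this single line, a change in the share of cells that express a gene and a change in RNA per cell cannot be told apart. The ephrin receptor EPHB3 fell from 8.89, 6.49 and 5.73 to 1.47, 2.59 and 2.01 CPM (log2 fold change -1.8 ± 0.25, adjusted p = 0.00535), and ERBB3 fell from 5.81 to 3.44 CPM. EPHA2 had 1099, 764 and 629 CPM in vehicle and 329, 472 and 351 with dexamethasone (log2 fold change -1.11 ± 0.24, adjusted p = 0.0488), and its call was lost without vehicle library 1 or 2 or dexamethasone library 1 or 3. The small rise of EGFR from 373 to 449.9 CPM was lost without any single one of the 6 libraries.

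Receptors for cytokines, TNF ligands and microbial products rose in 9 and fell in 12 of 79 tested cases (11.4% and 15.2%). IL1R1, the signalling receptor for interleukin-1, rose from 27.4, 33.4 and 30.4 to 131, 137 and 145 CPM (log2 fold change 2.18 ± 0.091, adjusted p = 2.68e-06), while its coreceptor IL1RAP fell from 16.1, 21.3 and 19.9 to 11.8, 10.2 and 10.5 CPM (log2 fold change -0.82 ± 0.12, adjusted p = 0.00291). TLR2, a receptor for bacterial lipoproteins, rose from 6.57, 6.05 and 6.04 to 26, 27.4 and 26.8 CPM (log2 fold change 2.1 ± 0.075, adjusted p = 1.10e-06). TLR4, the endotoxin receptor, rose from 6.67, 7.92 and 9.22 to 25, 21.7 and 23.1 CPM (log2 fold change 1.55 ± 0.12, adjusted p = 9.43e-05). TLR6, which pairs with TLR2, fell from 4.35, 5.09 and 5.32 to 2.48, 2.27 and 2.56 CPM (log2 fold change -1.01 ± 0.11, adjusted p = 8.20e-04). TNFRSF1A, the main TNF receptor, rose from 138 to 215 CPM (0.64 ± 0.072), and TNFRSF10B, a receptor of the death ligand TRAIL, fell from 104, 102 and 98.8 to 63.4, 64.4 and 66.2 CPM (log2 fold change -0.65 ± 0.063, adjusted p = 3.22e-04). IL15RA fell from 17.7 to 10.6 CPM.

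In the MAP kinase cascade 10 of 86 tested genes rose and 12 fell (11.6% and 14%). ERRFI1, a cytoplasmic inhibitor of the EGF receptor, was abundant and rose from 388, 433 and 434 to 1460.5, 1350.3 and 1450.4 CPM (log2 fold change 1.76 ± 0.078, adjusted p = 3.57e-06). The stress kinase regulators GADD45A (50.8, 46.1 and 44.2 to 100.3, 99.5 and 91.6 CPM, log2 fold change 1.05 ± 0.078, adjusted p = 7.19e-05) and GADD45B (16.9, 15.6 and 16 to 45.4, 41.9 and 42.6 CPM, log2 fold change 1.42 ± 0.071, adjusted p = 7.25e-06) rose. KSR1, a scaffold for RAF, MEK and ERK shown above with its AP-1 core, fell from 19.4, 17.2 and 14.9 to 6.53, 7.51 and 7 CPM (log2 fold change -1.29 ± 0.11, adjusted p = 1.66e-04). MAP2K3, a kinase upstream of p38, fell from 155, 132 and 133 to 79.1, 82.8 and 78.2 CPM (log2 fold change -0.81 ± 0.082, adjusted p = 4.81e-04), and the ERK phosphatase DUSP7 from 87 to 48.3 CPM. Sprouty and SPRED proteins, feedback inhibitors of this cascade, split: SPRY1 (-0.80 ± 0.08), SPRY2 (-0.72 ± 0.062) and SPRED1 (-0.48 ± 0.071) fell and SPRY4 (0.72 ± 0.074) rose, for example SPRY2 from 35.2, 36 and 35.7 to 21.8, 21.2 and 22 CPM and SPRY4 from 66.1, 66 and 69.6 to 104, 119 and 108 CPM.

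Small GTPases and their regulators changed in both directions. RHOB, an endosomal small GTPase, rose from 21, 16.4 and 13 to 52.6, 73.5 and 53.8 CPM (log2 fold change 1.83 ± 0.21, adjusted p = 0.00394). The exchange factor ARHGEF26 rose from 16, 17.9 and 18 to 57, 56.6 and 58.2 CPM (log2 fold change 1.73 ± 0.073, adjusted p = 2.75e-06), and the septin and actin organiser CDC42EP3 from 168, 168 and 170.4 to 324, 296 and 316 CPM (log2 fold change 0.89 ± 0.067, adjusted p = 7.71e-05). STARD8, a GTPase-activating protein, fell from 59.2, 49.1 and 39.7 to 17.1, 22.1 and 17.3 CPM (log2 fold change -1.39 ± 0.17, adjusted p = 0.00324). Among 67 Ras and Rap regulators 9 rose and 11 fell (13.4% and 16.4%). GEM, a small GTP-binding protein that restrains calcium channels, fell from 19.8, 17.6 and 18.7 to 4.64, 4.75 and 4.37 CPM (log2 fold change -2.03 ± 0.083, adjusted p = 2.51e-06), and RAP2B from 48.1, 44.2 and 42.6 to 24.7, 24.3 and 24.4 CPM (log2 fold change -0.88 ± 0.07, adjusted p = 9.93e-05). RASSF4 rose from 24.2 to 46.7 CPM.

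Genes of phosphoinositide 3-kinase and AKT signalling gave 4 rises and 7 falls among 71 tested (5.63% and 9.86%), beside 5.52% and 5.61% of protein-coding genes. The share of rises is near that of protein-coding genes. PHLDA1, a pleckstrin-like protein, fell from 424, 397 and 373 to 123, 132 and 124 CPM (log2 fold change -1.66 ± 0.076, adjusted p = 4.67e-06). PIK3C2B, a class II lipid kinase, fell from 15.3, 15.8 and 10.9 to 4.33, 5.48 and 5 CPM (log2 fold change -1.5 ± 0.16, adjusted p = 8.34e-04). PHLPP1, a phosphatase of AKT, rose from 28.5, 23.6 and 21.8 to 40.4, 50.1 and 45 CPM (log2 fold change 0.87 ± 0.12, adjusted p = 0.00249). DDIT4, an inhibitor of mTOR, rose from 88.3, 82.9 and 67.6 to 234, 266 and 239.9 CPM, with 41.2% overlap. The tyrosine phosphatase PTPN1, which acts on the insulin receptor, rose from 179.9, 182 and 171 to 318, 313 and 321 CPM (log2 fold change 0.84 ± 0.064, adjusted p = 8.50e-05). Its phosphatase list of 103 tested genes had 4 rises and 7 falls (3.88% and 6.8%), beside 5.52% and 5.61% of protein-coding genes.

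Lipid and phospholipid signalling enzymes rose in 16 and fell in 6 of 102 tested cases (15.7% and 5.88%), with a median of -0.08 over the list. ALOX15B, a lipoxygenase of arachidonic acid, rose from 0.107, 0.187 and 0.118 to 8.72, 14.4 and 9.89 CPM (log2 fold change 6.3 ± 0.3, adjusted p = 2.40e-05). IP6K3, an inositol phosphate kinase, rose from 0.0268, 0.0243 and 0.0272 to 2.84, 3.23 and 2.87 CPM (log2 fold change 6.78 ± 0.2, adjusted p = 3.62e-07). Among enzymes of prostaglandin metabolism, PTGS2, the inducible cyclooxygenase, rose from 0.607, 0.884 and 0.535 to 3.88, 3.51 and 4.71 CPM (log2 fold change 2.57 ± 0.2, adjusted p = 1.02e-04). Its constitutive relative PTGS1 rose from 5.63, 5.39 and 4.72 to 8.05, 9.69 and 8.01 CPM (log2 fold change 0.71 ± 0.11, adjusted p = 0.00514), the degrading enzyme HPGD from 0.634, 0.657 and 0.462 to 1.91, 1.93 and 2.07 CPM (log2 fold change 1.75 ± 0.16, adjusted p = 2.39e-04), and the prostaglandin carrier SLCO2A1 from 1.1 to 2.55 CPM (1.21 ± 0.19). LPIN1, a phosphatidate phosphatase, rose from 33.8, 35.7 and 37.3 to 59.9, 63.4 and 64.3 CPM (log2 fold change 0.81 ± 0.069, adjusted p = 1.50e-04) and the inositol phosphate kinase ITPKC from 11.8 to 30.1 CPM, whereas its relative ITPKB fell from 5.25 to 2.61 CPM.

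Ubiquitin ligases and deubiquitinases gave 25 rises and 32 falls among 347 tested (7.2% and 9.22%). SMURF2, a ligase that targets TGF-beta receptors and SMADs, fell from 193, 209.6 and 212 to 118, 104 and 115 CPM (log2 fold change -0.87 ± 0.079, adjusted p = 2.29e-04). OTUD1, a deubiquitinase, fell from 20.3, 16.4 and 15 to 6.42, 8.43 and 7.3 CPM (log2 fold change -1.23 ± 0.14, adjusted p = 0.00111). The ligase NEDD4, whose family acts on the epithelial sodium channel, rose from 36.1, 43.1 and 38.9 to 70.4, 68.6 and 71.4 CPM (log2 fold change 0.83 ± 0.079, adjusted p = 3.02e-04). KLHL4 rose from 53 to 99.3 CPM and KLHL24 from 4.49 to 8.56 CPM.

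**Figure D5:**
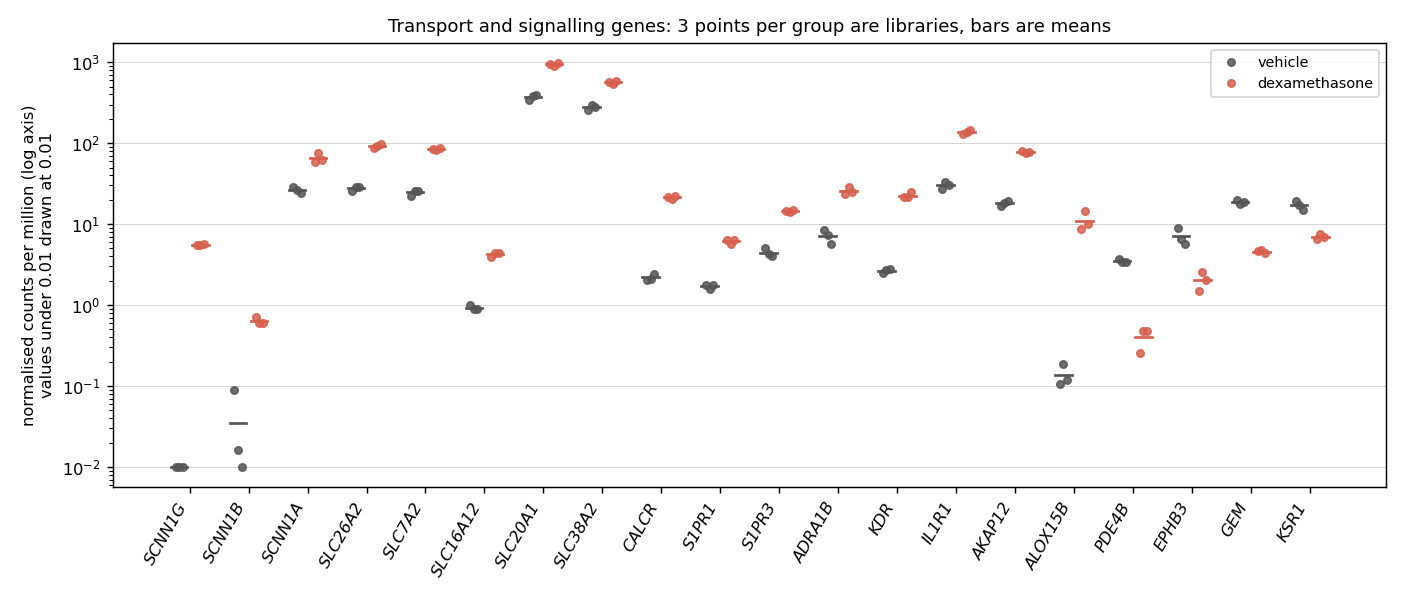
Normalised CPM on a log axis for 20 transport and signalling genes, with 1 point per library and a bar at the mean of 3, vehicle in grey and dexamethasone in red. SCNN1G has 0 counts in every vehicle library, drawn at the lower edge, and 5.47 to 5.75 CPM with dexamethasone. PDE4B, EPHB3, GEM and KSR1 lie lower with dexamethasone and the other 16 genes higher.

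Outside these lists, the 20 largest rises and falls held further genes. ACPL2, an acid phosphatase-like gene, rose from 1.12, 1.3 and 1.55 to 17.2, 16.5 and 17.1 CPM (log2 fold change 3.68 ± 0.12, adjusted p = 8.22e-07). PPFIBP2, a liprin with an AP-1 core in the stretch shown above, fell from 7.61, 9.77 and 8.68 to 2.02, 2.04 and 1.45 CPM (log2 fold change -2.24 ± 0.16, adjusted p = 5.09e-05). The falls of RIMBP3, RIMBP3B and RIMBP3C (-2.04, -2.07 and -2.08) come from near-identical copies between which reads can be split, and they are uncertain for each copy. AMIGO2, an adhesion protein outside that ranking, fell from 31.3, 28.8 and 33 to 13.5, 11.3 and 11.9 CPM (log2 fold change -1.34 ± 0.091, adjusted p = 4.36e-05).

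Of called genes with at most 3 counts over one group, 15 were higher with dexamethasone and 1 was lower. Of the 15, 5 had 0 vehicle counts and 10 had 1 to 3. Such a gene passed the low-count filter only through the group where it is high, so the balance is no result of its own. With no filter the counts were 24 and 10, with vehicle library 1 and dexamethasone library 2 both left out 26 and 10, and with 1 library left out 15 to 33 and 1 to 10. Besides SCNN1G, the pepsinogen gene PGC had 1 count over the vehicle libraries and 248 with dexamethasone, at 0.651, 0.747 and 0.641 CPM. HOPX, a homeodomain-only cofactor, had 0 and 84 counts, which is at least 26.5-fold higher against 3 counts over the vehicle group (adjusted p = 0.00116). The cadherin CDH16 had 1 and 74 counts and FLRT3, an adhesion protein, 2 and 72. The platelet factor gene PF4 had 2 and 57 counts. Except for SCNN1G, these genes stayed under 1 CPM with dexamethasone.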

How the data were processed

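RNA of MDA-MB-231 cells was read by polyA RNA-seq, per the labels' protocols, with a transposase-based non-stranded kit and paired 50-base reads. The authors deposited whole-number read counts per gene in a table shared with the other line. The submitters' processing notes name hg19, TopHat 1.4.1, Cufflinks 1.3.0 and bedtools, and the step that made the counts is not given in the sources used here. Of 51838 genes, 25677 passed filterByExpr (minimum count 10) in the 6 libraries used, whose depth of 106345287 to 121859523 counts sets the counting error. Intervals and floors cover counting error only. The fit was edgeR 4.0.16 (TMM, robust quasi-likelihood, a mean per group; glmTreat for 1.5-fold) in R 4.3.3, tested on simulated data. Alternatives with limma 3.58.1, DESeq2 1.42.0 and other settings numbered 18. GC content, length and exonic overlap came from GENCODE annotation matched by gene ID (86.9% of genes), and promoters from RefSeq GRCh38.p14, so no coordinate of the files was converted.

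The members and lists were chosen with earlier results of these data known. Genes were named by a rule: per list up to 5 rises and 5 falls of largest log2 fold change, called, averaging 1 or more in log2 CPM, and with groups that did not overlap; the 20 largest rises and falls by the same criteria; called genes with 3 or fewer counts over one group (up to 10); and NR3C1 and FKBP5. Outside this rule, ABCG1, AMIGO2, BDKRB1, CCL20, CCR1, COL1A2, CSF1, CSF2, CSF3, CXCL1, CXCL2, CXCL3, F3, FN1, GDF15, HLF, HPGD, IKZF2, IL1A, IL6, IP6K3, IRF1, KITLG, KLF3, KLF4, KLF5, KLF6, LPIN1, NCOA3, NR5A2, NRG1, NRIP1, PDE4B, PTGS1, RGS2, SCNN1B, SCNN1D, SLC6A12, SLCO2A1, SOX15, SPRED1, SPRY1, SPRY2, SPRY4, TGFA, TNFRSF1A, TNFSF15, TRPV6, TXNIP and VEGFC were chosen after their values were seen. Some genes and a gene list that met the rules are not reported here.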

Additional observations from a re-analysis of the deposited data

How the results depend on the processing

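Across 18 alternatives no named gene changed direction in 7706 recomputed values. Of 434 called genes examined, 328 had a value under all 18 and 232 of these kept their call in each. The other 106 had no value under the strict low-count filter, and 298 of the 434 kept their call wherever they had a value. With the strict filter of 5 CPM in 3 libraries, 180 genes were higher and 120 lower by at least 2-fold, 306 were called beyond 1.5-fold (207 higher and 99 lower), 28 transport genes rose, and the called genes with at most 3 counts over the other group numbered 1 higher and 0 lower with dexamethasone. With no filter these were 24 and 10. The strict filter left 12253 genes to test and no filter left 37526, and the cause of these differences was not tested. DESeq2's Wald test gave 1574 falls. The offset for GC content and length gave 3792 calls, 1950 higher and 1842 lower, with 133 falls of transcription factors, 65 rises and 64 falls of transport genes, and 192 rises and 218 falls of signalling genes. With vehicle library 1 and dexamethasone library 2 both left out, there were 4400 calls, 1732 higher and 2668 lower, of which 462 were lower by at least 2-fold and 271 lower beyond 1.5-fold. Falls then numbered 191 for transcription, 106 for transport and 314 for signalling genes, the genes with at most 3 counts over a group were 26 higher and 10 lower, and 6.63% of windows of falls held the AP-1 core. The cause was not tested.

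Replicate numbers are shared between the arms. Deviations of same-numbered libraries from their group means correlated at -0.684, -0.286 and 0.418 over 13985 genes. Each vehicle library correlated best with a dexamethasone library of another number. The values were 0.79 for vehicle 1 with dexamethasone 2, 0.357 for vehicle 2 with dexamethasone 3 and 0.714 for vehicle 3 with dexamethasone 1. Of the dexamethasone libraries only library 3 correlated best with its own number. With 3 libraries per arm that also differ along GC content, these values show no pairing by number but cannot exclude one. With the replicate block 1146 genes were called, 659 higher and 487 lower, 349 beyond 1.5-fold with 90 lower. The block gave 51 falls of transcription factors, 27 rises and 15 falls of transport genes, 74 rises and 71 falls of signalling genes, and 0 lower genes with at most 3 counts over the dexamethasone group. The block together with the offset gave 2805 calls and the AP-1 core in 6.41% of windows of rises.

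Leaving out 1 library at a time gave 1109 to 2195 calls, 649 to 1032 higher and 460 to 1177 lower. The lowest counts came without dexamethasone library 3. Rises of at least 2-fold ranged from 358 to 439 and falls from 177 to 489, and calls beyond 1.5-fold from 368 to 556, with 275 to 365 higher and 91 to 200 lower. Per section, rises ranged from 22 to 33 for secreted, 52 to 68 for transcription, 27 to 41 for transport and 73 to 101 for signalling genes, and falls from 39 to 61, 48 to 109, 16 to 47 and 69 to 152. Genes with at most 3 counts over a group numbered 15 to 33 higher and 1 to 10 lower. The response element core was found in 0.682% to 0.897% of windows of rises and 0.166% to 0.536% of falls, and the AP-1 core in 7.58% to 8.83% and 7.58% to 9.63%. At this depth 3 counts in a library equal at most 0.0272 CPM, and levels near that value cannot be told from 0.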

Other observations

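Several gene groups outside the lists of the report can be described from the same fit. Replication-dependent histone genes, which mark cells in DNA synthesis, gave 0 calls among 23 tested in either direction by edgeR's test (1 at an unadjusted p under 0.05 in each direction, 0 by DESeq2 and by limma voom). Their summed level ranged from 47.9 to 50.8 CPM in vehicle and from 46.8 to 53.8 CPM with dexamethasone. The cytosolic ribosomal protein genes also gave 0 calls among 82 tested, but 40 were higher at an unadjusted p under 0.05, and their summed level was 21206 to 23694 CPM in vehicle and 24320 to 27111 CPM with dexamethasone, without overlap. The median log2 fold change of the list was 0.2, or 0.18 after the correction for GC content and length, after which 7 were called higher. MYC, a factor that promotes ribosome production, rose in the same libraries, and no relation between the values was tested.

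Among gene types, long intergenic noncoding RNAs gave 34 rises (5.14%) and 19 falls (2.87%) of 662 tested. These shares are near those over all 25677 tested genes, 4.32% and 3.92%. Processed pseudogenes, whose reads can come from the parent gene, gave 58 rises (1.77%) and 20 falls (0.611%) of 3276 tested, and the share of rises among them is therefore uncertain.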
